A study of Mus musculus with 9 samples.

Results

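Mesenchymal cells of the thymus were set against mesenchymal cells of bone, both sorted from C57BL/6 mice aged 3 to 4 weeks. The comparison was formed by the labels alone: the 3 RNA-seq libraries titled as SCA1-positive thymus cells (thymus 2, thymus 3 and thymus 1-3 in the labels) against the 3 titled as SCA1-positive bone cells (bone 1, 2 and 3), which are 6 of the 9 samples of the series. In both tissues, cells without the lineage antigens (the leukocyte antigens CD45, CD2, CD4, B220, GR-1 and CD11b, the red cell and platelet antigens TER119 and CD41, the epithelial antigen EpCAM and the endothelial antigen CD31) and with surface SCA1 were sorted, at least 25000 per sample. No mouse carried a transgene or received a treatment, per the labels. Bone came from femur, tibia and pelvis, and its preparation added crushing and lysis of red cells to an enzyme digestion like that of the thymus, so that tissue and preparation cannot be told apart. The labels do not say what "1-3" stands for, nor whether each library came from a separate mouse, so that the p-values measure the spread between these samples. The other 3 libraries, from skin, entered the gene filter, the scaling and the estimate of the spread, but not the contrast.

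SCA1, the product of Ly6a, is a surface antigen used to enrich fibroblast-like and progenitor cells of connective tissue. In the thymus such cells form the capsule, the septa and the sheaths of vessels, and they supply growth factors and matrix to the epithelium in which T cells develop. In bone they lie in the periosteum, the endosteum and around vessels, and include progenitors of bone, cartilage and marrow stroma. The genes of cartilage and bone matrix, the Hox clusters and leukocyte markers differ in this comparison as well and are not described here; matrix, signalling, receptor, metabolic and response genes are.

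Each library held 92394043 to 104101456 reads on genes in thymus and 78757872 to 95113387 in bone. Of 15635 genes tested with edgeR, 2584 were higher in thymus (16.5%) and 2517 lower (16.1%) at an adjusted p of 0.05, so that 32.6% were called in one direction or the other. With a fold of at least 2, 8.84% of tested genes were higher and 11% lower. The median log2 difference over all tested genes was 0.0219, and the 6 libraries did not overlap between tissues for 49.4% of genes. These shares are set beside every list below as a background. The lists were chosen with earlier results of these data known, and the background was not matched to them by level. Their shares are therefore descriptions and not tests. Levels are CPM, gene counts relative to library size, scaled by the TMM method, given in the order thymus 2, thymus 3, thymus 1-3 and bone 1, 2, 3. Differences are log2 fold changes, thymus minus bone, with the standard error worked back from the test, and "higher", "lower", "rose" and "fell" are used for thymus against bone at that threshold.

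The sort marker and general mesenchymal genes were present in all 6 libraries. Ly6a stood at 377, 427 and 476 CPM in thymus and at 327, 240.1 and 273 in bone, a difference of 0.61 ± 0.24 that did not pass (adjusted p = 0.0762) but did with DESeq2 (0.0412) and with the thymus and bone libraries fitted alone (0.0114). Of 12 mesenchymal markers, 4 were higher and 3 lower. Pdgfrb, a receptor for platelet-derived growth factor, rose most (823, 729 and 717 against 264, 289.5 and 259 CPM, 1.48 ± 0.16). Vim, which encodes the intermediate filament vimentin, fell most (1448, 1411 and 1422 against 3050.1, 2388 and 3274 CPM, by 1.03 ± 0.16 on the log2 scale). The transcription factor gene Prrx1 overlapped between tissues.

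Markers of other cell types also moved with the tissue. All 20 myeloid markers were lower in thymus, where they summed to 19.6 to 57.2 CPM against 3370 to 4620 in bone, with Ctsg at 0 in thymus. Red cell precursor markers were lower for 6 of 8 tested (sums 3.35 to 9.57 against 74.7 to 91.3 CPM), and B lineage markers for 8 of 13 (97.6 to 153 against 244 to 327 CPM). The median of the B lineage list was -5.74, or -5.21 with genes at 0 reads at their bound, so that its sums do not show the typical member. Rag1 and Dntt are on this list and on the thymocyte list. Thymocyte and T cell markers were higher for 11 of 18, and without Thy1, which mesenchymal cells also express, they summed to 116, 298 and 186 CPM in thymus against 46.4, 89.7 and 64.6. Thymic epithelial markers were higher for 5 of 13 tested and lower for 1 (28.2 to 30.5 against 13.1 to 15.1 CPM). Krt8 and Krt18 are on this list and on the mesothelial list below. Aire was at 0 in bone and at 0.94, 0.385 and 0.255 CPM in thymus. Its call was lost without thymus 2, thymus 3, thymus 1-3, bone 2 or bone 3 (adjusted p = 0.0592 to 0.0903). Endothelial markers, 3 of 15 higher and 3 lower, summed to 154 to 258 CPM in thymus against 95.3 to 108 in bone, without overlap. Their lower count was 1 without thymus 2, thymus 3, thymus 1-3, bone 2 or bone 3. Megakaryocyte markers were lower for 4 of 8 (4.11 to 11.2 against 28.2 to 92.9 CPM). Osteoclast markers were lower for 5 of 8 tested and higher for 1 (median -2.29). Their sums overlapped (812 to 961 against 701 to 967 CPM), but the higher member Mmp9, given below, made up most of each thymus sum and a small part of the bone sums. In sorted bulk samples, fewer cells of a type and less RNA per cell cannot be told apart. The part of these cells in the differences below was not tested.

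**Figure D1:**
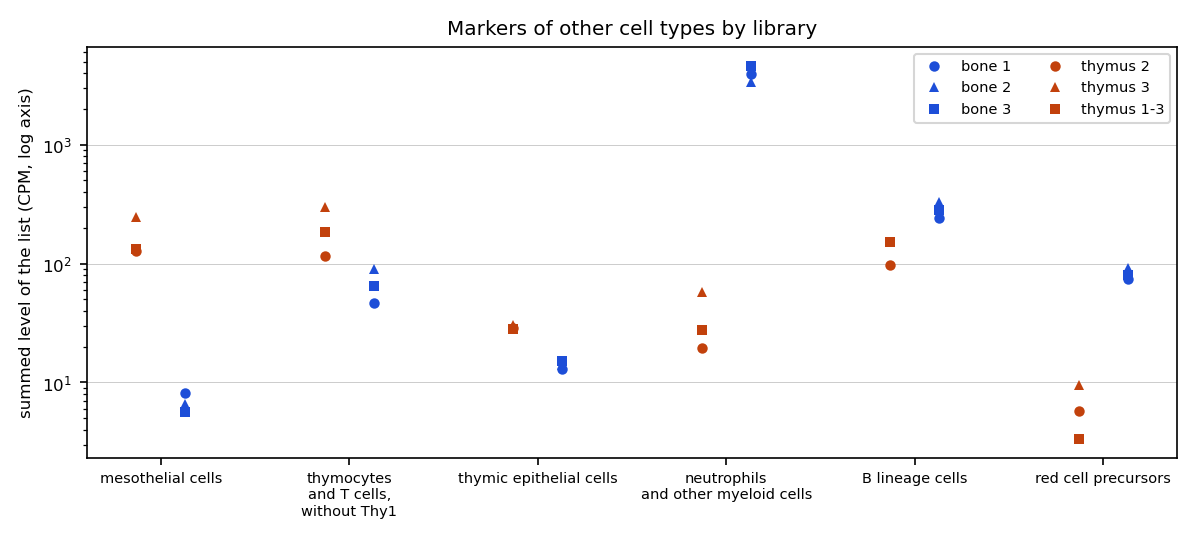
Summed CPM of marker lists of other cell types (y axis, log scale) for each of the 3 thymus and 3 bone libraries (points). Myeloid sums lie at 19.6 to 57.2 CPM in thymus and at 3370 to 4620 in bone, while mesothelial sums lie at 127 to 246 and 5.7 to 8.08, with Cldn15 a large part of each.

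Mesothelial markers were higher in thymus. These genes belong to the flat epithelium that covers the serous surfaces of organs. Of 11 tested, 9 were higher, and the list summed to 127, 246 and 132 CPM in thymus against 8.08, 6.54 and 5.7 in bone. Wt1, which encodes a zinc finger factor of mesothelium and podocytes, was at 12.3, 25 and 20.3 CPM in thymus and had 2 reads in all of bone, a ratio of 2990 with a 95% counting interval of 827 to 24700. Upk3b, a uroplakin gene, was at 5.98, 38.5 and 10.6 CPM, and Msln, which encodes mesothelin, at 5.05, 23.6 and 5.84 CPM. Library thymus 3 was the highest for each of the 3, and without it the call of Msln was lost (adjusted p = 0.103), as it was without bone 2 or bone 3 (0.0689 and 0.0639). Cldn15, a claudin gene on the same list, did not follow that order, at 88.6, 87.2 and 67.4 CPM in thymus against 3.61, 3.16 and 2.58 in bone (4.70 ± 0.23, adjusted p = 9.47e-08). It made up a large part of each sum of the list, and most of that of thymus 2, so that the other members differ more between thymus libraries than the sums do.

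**Figure D2:**
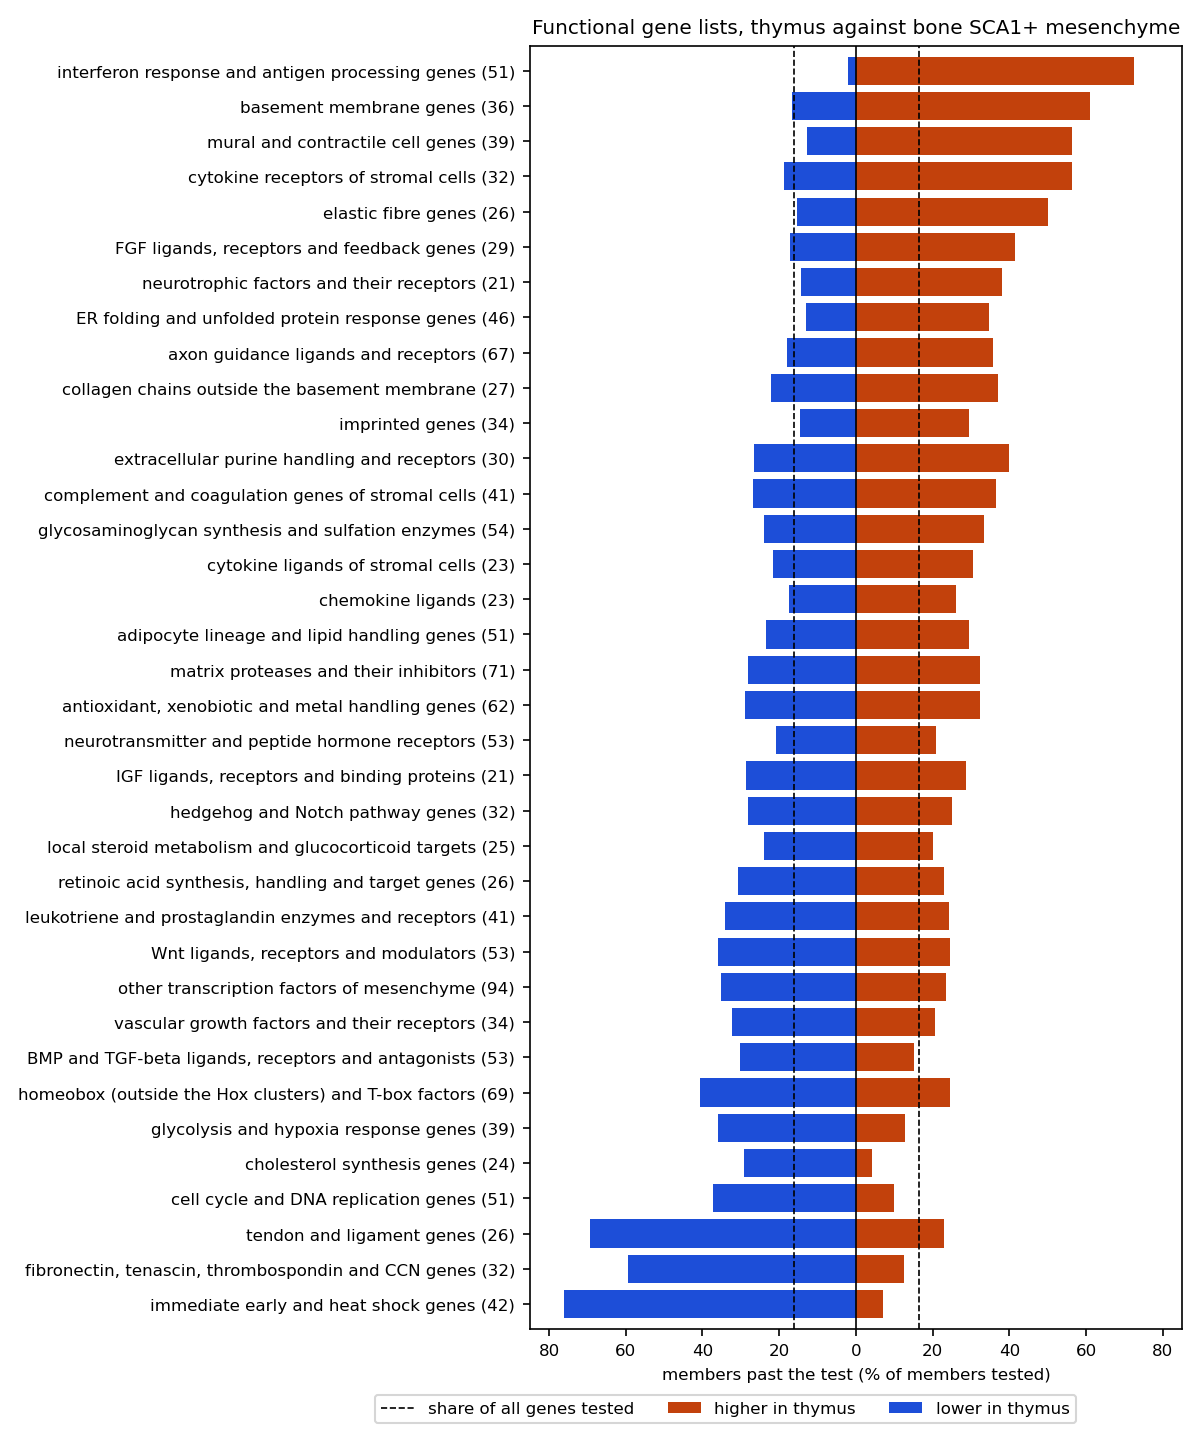
Share of tested members called higher in thymus (bars to the right) or lower (bars to the left), in percent of the members tested, for each function list. Dashed lines are the shares over all genes, 16.5% and 16.1%, which were not matched to the lists by level. Interferon response, basement membrane and contractile lists lean to the right, while immediate early, tendon and matricellular lists lean to the left.

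Basement membrane genes were higher in thymus as a group. These genes encode the type IV collagens, laminins, nidogens and heparan sulfate proteoglycans of the sheet on which epithelium, vessels and nerves rest. Of 36 tested, 22 were higher and 6 lower, with a median log2 difference of 1.2 against 0.0219 for all genes, and the list summed to 36600 to 40200 CPM in thymus against 18000 to 19000 in bone. Lama2, the laminin alpha 2 chain of muscle and mesenchyme (mm10 chr10:26981285-27616942), was at 1409.6, 1313 and 1236 CPM in thymus and 247, 259 and 217 in bone (2.45 ± 0.14, adjusted p = 3.48e-07). Lamb1, its beta 1 partner, was at 1896, 1628 and 1714 against 419.6, 421 and 386 CPM (2.09 ± 0.16, adjusted p = 2.2e-06). The groups did not overlap for either chain. Lamc1 (1.76 ± 0.15), the cross-linker Nid1 (1.57 ± 0.19), its relative Nid2 (2.04 ± 0.21) and the type IV chains Col4a1 (1.39 ± 0.22) and Col4a2 (1.06 ± 0.19) were higher as well.

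Anchoring and nerve-associated members showed larger differences. Col7a1, the collagen of anchoring fibrils, was at 111, 84.7 and 67.4 CPM in thymus and 1.69, 1.79 and 2.08 in bone (5.57 ± 0.24, adjusted p = 4.05e-08). Egflam, which encodes pikachurin, a ligand of dystroglycan, was at 81.6, 58.4 and 69.5 against 1.3, 3.13 and 1.04 CPM (5.25 ± 0.48). In the other direction, Lama5, the laminin alpha 5 chain, was at 4.79, 3.06 and 3.4 CPM in thymus and 54.4, 43.8 and 42.1 in bone (fell by 3.64 ± 0.43). Smoc1, a secreted matrix protein that binds growth factors, fell by 4.12 ± 0.32, while its relative Smoc2 rose (1.76 ± 0.24). Sparc, the most abundant member that did not pass, overlapped between tissues (0.03 ± 0.15, adjusted p = 0.889).

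**Figure D3:**
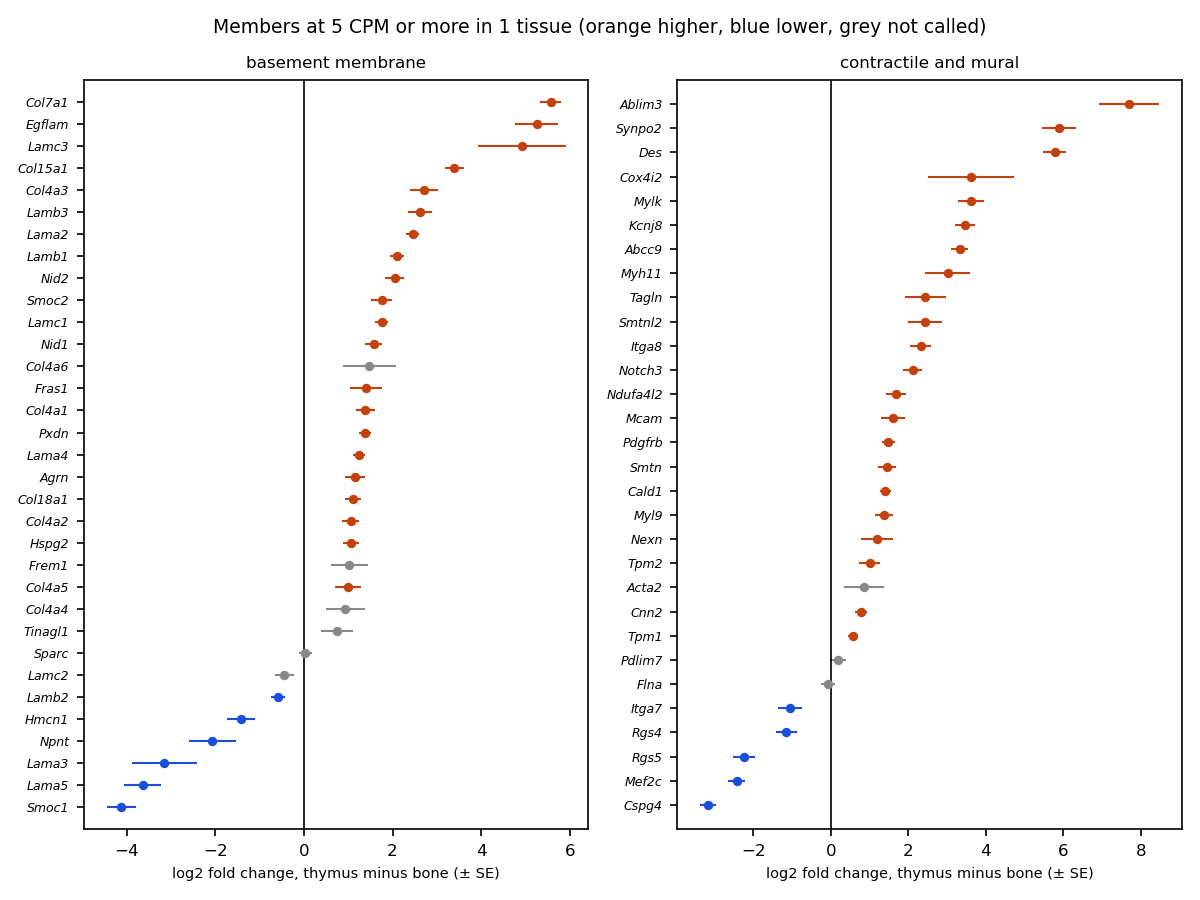
Log2 fold change, thymus minus bone, with its standard error (bars) for members of the basement membrane list (left) and the contractile and mural list (right) that reach 5 CPM in one tissue. Orange points are higher, blue lower and grey not called; Col7a1 stands at 5.57 and Smoc1 at -4.12 on the left, Des at 5.78 and Cspg4 at -3.16 on the right.

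Collagen chains outside the basement membrane were split, with 10 of 27 higher and 6 lower (median -0.122). Beaded filament collagen VI was on the higher side: Col6a1 was at 9836, 8529.8 and 9915 CPM in thymus against 3473, 3484 and 3322 (1.46 ± 0.17), and Col6a5 at 1484, 1235 and 1188 against 32, 39.8 and 14.5 (5.50 ± 0.36, adjusted p = 1.84e-06). Per length, mean Col6a1 was 2211 RPKM in thymus and 797 in bone. Col26a1 also rose (4.64 ± 0.32). Fibrillar chain Col3a1 did not pass (-0.26 ± 0.15, adjusted p = 0.194, and 0.0148 with DESeq2), and Col1a1 fell by 0.92 ± 0.16. Col22a1, a collagen of tissue junctions, fell furthest among abundant members, from 1020.4, 592 and 814 CPM in bone to 2.42, 3.06 and 1.56 in thymus (by 8.43 ± 0.33).

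Elastic fibre genes leaned to thymus. These fibres let vessels and capsules recoil, and they are built of elastin on a scaffold of fibrillins and fibulins. Of 26 genes, 13 were higher and 4 lower (median 0.619). Eln itself, the gene for elastin, was at 1359, 1961 and 2785 CPM in thymus and 436, 503 and 348 in bone (2.25 ± 0.26, adjusted p = 5.75e-05), with groups apart. Efemp1 (2.79 ± 0.21) and Fbln1 (2.19 ± 0.20), both fibulin genes, and Emilin1 (1.33 ± 0.15) rose with it. Vtn, the gene for the adhesive glycoprotein vitronectin, rose by more, from 2.63, 0.921 and 2.36 CPM in bone to 88.3, 84 and 113 (5.60 ± 0.47). Lox, a cross-linking oxidase, was lower (by 1.04 ± 0.26), and so was the fibulin gene Fbln7 (by 2.54 ± 0.24).

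Genes of tendon and of adhesion-modulating matrix were lower in thymus. Of 26 tendon and ligament genes, 18 were lower and 6 higher (median -1.49). Tnmd, the gene for tenomodulin, a membrane protein typical of tendon, was at 0.185, 0.234 and 0.294 CPM in thymus against 63.1, 51.7 and 62.8 in bone (fell by 7.96 ± 0.24, adjusted p = 5.16e-09). Tendon transcription factor genes Scx (by 5.51 ± 1.23) and Mkx (by 5.97 ± 0.91) fell too, from at most 9.44 CPM in bone. Among fibronectin, tenascin, thrombospondin and CCN genes, 19 of 32 were lower and 4 higher (median -1.49). Thbs1, an inhibitor of vessel growth and activator of latent TGF-beta, was at 166, 175 and 124 against 812, 807 and 946 CPM (fell by 2.46 ± 0.20), and Ctgf, a CCN gene, at 145, 108 and 104 against 1423, 1106 and 1228 (by 3.40 ± 0.48). Mfge8, a bridge between dying cells and phagocytes, went the other way, at 1675, 1329 and 1340.5 CPM against 175, 161 and 153 (3.15 ± 0.18, adjusted p = 3.01e-07). Sparcl1, a relative of Sparc on none of these lists, was among the most abundant genes higher in thymus (4029.8, 3544 and 3597 against 861, 634 and 802 CPM, 2.28 ± 0.22).

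Matrix proteases and their inhibitors were called in both directions, 23 of 71 higher and 20 lower (median 0.278). Plat, the tissue plasminogen activator, was at 721, 704 and 537 CPM in thymus against 82.1, 92 and 126 (2.71 ± 0.20), and its inhibitor Serpine2 at 3937, 3427 and 2910.4 against 511, 534 and 521 (2.71 ± 0.34). Mmp9, a gelatinase, was also higher (601, 461 and 585 against 87.3, 99.5 and 90.9 CPM, 2.57 ± 0.22). Adamts6 and Adam8 fell by 3.36 ± 0.26 and 4.17 ± 0.30, and Adamts1 by 1.83 ± 0.18. Htra4, a secreted serine protease, fell from 1800.3, 1103 and 1308 CPM in bone to 4.18, 3.58 and 2.73 (by 8.65 ± 0.37, adjusted p = 7.37e-08). Timp2, the most abundant member that did not pass, overlapped. Among enzymes of glycosaminoglycan chains, 18 of 54 were higher and 13 lower (median 0.172): the heparan sulfotransferase Hs3st3b1 rose (2.78 ± 0.21), while Ugdh, which makes the UDP-glucuronate for these chains, fell by 2.31 ± 0.21. Has1, a hyaluronan synthase, fell by 6.50 ± 0.63, and Has2, another, overlapped between tissues (0.08 ± 0.21, adjusted p = 0.821).

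Contractile and mural genes were higher in thymus in most cases. These genes are used by smooth muscle, pericytes and contractile fibroblasts. Of 39 tested, 22 were higher and 5 lower (median 1.41). Des, which encodes the muscle intermediate filament desmin (mm10 chr1:75360344-75367715), was at 682, 556 and 836 CPM in thymus and 17.2, 8.6 and 12.1 in bone (5.78 ± 0.30, adjusted p = 2.83e-07). Mylk, myosin light chain kinase, was at 618, 445 and 631 against 41.4, 68.2 and 29 CPM (3.61 ± 0.33), and Synpo2, an actin-bundling protein of muscle, at 144, 106 and 158 against 3.15, 2.59 and 1.12 (5.89 ± 0.43). Kcnj8 and Abcc9, which encode the pore and the sulfonylurea receptor of a mural potassium channel, rose together (3.46 ± 0.26 and 3.32 ± 0.22).

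Acta2, smooth muscle actin, did not pass (0.86 ± 0.52, adjusted p = 0.237), with 55.1, 45.5 and 74 CPM in thymus against 22.6, 36.5 and 36.9, but did with the thymus and bone libraries fitted alone (0.0188). Cspg4, which encodes the pericyte antigen NG2, was lower (22.3, 21.5 and 27.5 against 224, 189 and 224 CPM, by 3.16 ± 0.20), and the pericyte gene Rgs5 fell by 2.23 ± 0.29. Cnn1, the calponin of mature smooth muscle, stayed at or under 0.699 CPM in every library of both tissues.

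Several cytokine genes that act on lymphoid and myeloid cells were higher in thymus, while others were higher in bone. Of 23 tested, 7 were higher and 5 lower (median -0.0396), and the lower count dropped to 3 without thymus 2 or without thymus 1-3. Il34, a ligand of the receptor of colony-stimulating factor 1, was at 426, 332 and 297 CPM in thymus and 7.84, 10.5 and 8.61 in bone (mm10 chr8:110741829-110805903, 5.29 ± 0.44, adjusted p = 1.7e-05). Csf1, the other ligand of that receptor, overlapped between tissues (216, 225 and 315 against 286, 214 and 260.2 CPM, -0.01 ± 0.18, adjusted p = 0.984).

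Il33, an alarmin stored in the nucleus, was at 394, 391 and 372 CPM in thymus against 25.7, 35.4 and 38.1 (3.54 ± 0.33). Tnfsf13b, the B cell survival factor BAFF, rose from 1.86, 2.36 and 2.83 CPM to 22, 22.2 and 23.1 (3.25 ± 0.35). Il15, a growth factor of natural killer and memory T cells, rose by 2.54 ± 0.30, and Tslp by 3.73 ± 0.72. Il7, the T cell growth factor, was low in both and did not pass (6.47, 4.26 and 3.81 against 2.95, 2.15 and 2.21 CPM, 0.99 ± 0.50, adjusted p = 0.155). Its libraries did not overlap, and limma on RPKM called it higher under each of 3 settings (adjusted p = 0.0126 to 0.0479). Kitl, stem cell factor, was higher by 0.71 ± 0.21 although the libraries of the tissues overlapped, and the call was lost without thymus 2, bone 2 or bone 3 (adjusted p = 0.0905 to 0.105).

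On the bone side, Il6 was at 198, 98 and 119 CPM against 9.95, 25.4 and 2.56 in thymus (fell by 3.45 ± 0.70, adjusted p = 0.0042). Tnfsf11, the osteoclast factor RANKL, fell by 4.31 ± 1.10 from 9.82, 14.5 and 11.4 CPM, a call lost without thymus 2 (adjusted p = 0.0506) or thymus 1-3 (0.0621). Among chemokine ligands, 6 of 23 were higher and 4 lower (median 0.365), and without bone 2 the lower count was 8. Cx3cl1, a membrane-bound chemokine, was at 211, 180.1 and 172 against 26.2, 37.2 and 29.1 CPM (2.60 ± 0.26), and Cxcl13, which draws B cells, at 26.8, 25.3 and 24.9 against 0.00971, 0.324 and 0.586 (6.40 ± 1.13). Cxcl1, which draws neutrophils, was lower at 26.8, 70.9 and 17.3 CPM against 533, 278 and 648 (by 3.67 ± 0.53). Thymus 3 was the highest thymus library for both Il6 and Cxcl1, yet stayed under each bone library.

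**Figure D4:**
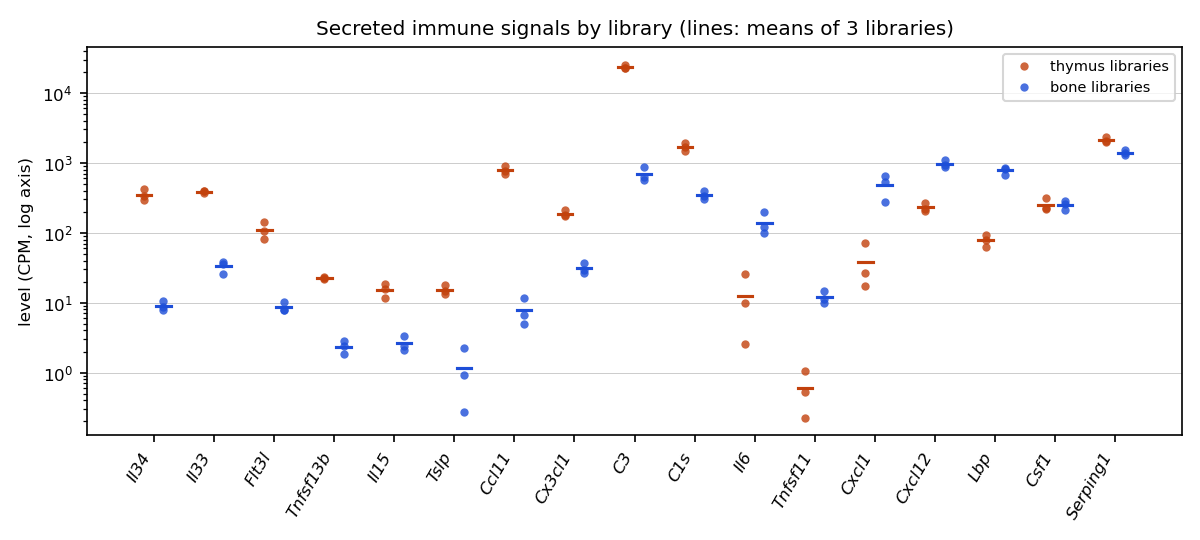
CPM (y axis, log scale) of cytokine, chemokine, complement and other signal genes in each thymus and bone library (points), with the mean of 3 libraries (lines). Il34 lies at 297 to 426 CPM in thymus and 7.84 to 10.5 in bone, Il6 at 2.56 to 25.4 and 98 to 198, and the points of Csf1 overlap.

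Receptors for cytokines were mostly higher in thymus, 18 of 32, with 6 lower (median 0.65). Il1r1, the signalling receptor for interleukin 1, was at 472, 426 and 438 CPM against 124, 102 and 119 (1.95 ± 0.13, adjusted p = 1.14e-06), and Ifngr1, a chain of the interferon gamma receptor, at 448, 368 and 427 against 88.8, 94.9 and 80.9 (2.23 ± 0.20). Tnfrsf21, death receptor 6, rose by 3.79 ± 0.14. Ltbr, the lymphotoxin beta receptor through which lymphocytes act on stroma, rose from 60.9, 68.6 and 61.1 CPM to 140.4, 119 and 157 (1.12 ± 0.14). Il6st, the shared chain of the interleukin 6 family, rose by 0.57 ± 0.13, while Il17ra fell by 1.24 ± 0.19. Il1rl1, the receptor for interleukin 33, was lower, at 0.713, 1.36 and 2.42 against 13.6, 8.72 and 76.7 CPM (by 4.47 ± 0.93). It was highest in bone 3.

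Complement genes set the tissues apart at high level. The complement cascade starts from C1 or from factor B, meets at C3 and opsonizes particles or lyses cells. Of 41 complement and coagulation genes, 15 were higher and 11 lower (median -0.0553), yet the list summed to 30600 to 34400 CPM in thymus against 6530 to 8260 in bone. C3 (mm10 chr17:57203973-57228136) made up most of that sum, at 25397, 22568 and 22620.0 CPM against 866, 559.9 and 634 (5.10 ± 0.30, adjusted p = 3.48e-07). Per length, C3 averaged 4604 RPKM in thymus, above Col1a1 at 1447. C1s and C1ra, the proteases of C1, rose by 2.30 ± 0.20 and 1.75 ± 0.21, C2 by 2.53 ± 0.22 and Cfb, factor B, by 1.23 ± 0.27. Against that direction, C4b was lower (186, 241 and 139 against 706, 405 and 478 CPM, by 1.49 ± 0.41; adjusted p = 0.0664 to 0.0804 without thymus 2, thymus 1-3 or bone 1). Serping1, the C1 inhibitor, did not pass (0.59 ± 0.22, adjusted p = 0.0601) but was higher in 4 alternatives (0.00613 with the thymus and bone libraries alone, 0.0248 with DESeq2, 0.0394 and 0.0408 with limma).

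In coagulation, both the starter and its brake were higher: F3, tissue factor, was at 116, 107 and 127 CPM against 27, 33.4 and 33.5 (1.90 ± 0.16), and Tfpi, the tissue factor pathway inhibitor, at 80.9, 70.5 and 84.7 against 11.8, 10.5 and 13.5 (2.72 ± 0.15). Lbp, which binds bacterial lipopolysaccharide, was lower at 62.1, 79 and 91.5 against 836, 681 and 817 CPM (by 3.33 ± 0.25). Fgl2, a membrane prothrombinase, fell from 1893, 1130.3 and 1456 CPM to 16.1, 21 and 12.5 (by 6.50 ± 0.30). F13a1, also lower (by 8.25 ± 0.85), is expressed by monocytes and platelets as well. The myeloid marker sums stated above were 3370 to 4620 CPM in bone, and the part of such cells in this or the other differences was not tested.

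FGF pathway genes leaned to thymus, with 12 of 29 higher and 5 lower (median 0.693), the lower count being 3 without thymus 3, without thymus 1-3 or without bone 2. FGFs act on receptor tyrosine kinases and induce their own feedback genes. Among ligands, Fgf1 was at 151, 153 and 157 CPM against 26.2, 17.5 and 13.6 (3.00 ± 0.25, adjusted p = 6.2e-06), and Fgf10, a mitogen of thymic epithelium in the embryo, at 58.3, 51.2 and 50.6 against 16.1, 12.2 and 3.31 (2.34 ± 0.46). Fgf7, another epithelial mitogen, was lower (by 1.01 ± 0.20). Receptor gene Fgfr1 did not pass (0.18 ± 0.14, adjusted p = 0.358), while Fgfr2 fell from 47.2, 72.8 and 47.6 CPM to 11.3, 15 and 15.2 (by 2.02 ± 0.20). The feedback inhibitors Spry1 (289, 218 and 263 against 54.9, 65.4 and 54.5 CPM, 2.14 ± 0.20), Spry4 (1.97 ± 0.19) and Dusp6 (1.11 ± 0.18) and the target factors Etv4 (2.25 ± 0.75) and Etv5 (1.40 ± 0.23) were higher. The call of Etv4 was lost without any 1 of the 6 libraries (adjusted p = 0.0753 to 0.115).

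Wnt pathway genes were called in both directions, 13 of 53 higher and 19 lower (median -0.0837). The secreted Rspo2, which amplifies Wnt signals, was at 64.1, 47.2 and 46.4 CPM in bone and at most 0.0418 in thymus (fell by 11.05 ± 0.48, adjusted p = 4.48e-08), while its relative Rspo1 rose to 5.24, 7.97 and 6.4 from 2.28, 0.495 and 2.14 CPM (2.00 ± 0.52). The antagonist genes Wif1, Sfrp4 and Dkk3 fell by 4.53 ± 0.70, 3.25 ± 0.37 and 1.69 ± 0.23, while Sfrp1 rose (1.26 ± 0.33; adjusted p = 0.0539 without thymus 1-3). Axin2, a common target gene of the pathway, was higher (38.8, 45.9 and 55.3 against 8.38, 10.5 and 13.9 CPM, 2.10 ± 0.24), as was the feedback gene Nkd1 (2.35 ± 0.23). The receptors Ror1 and Ror2, which bind Wnt5a, rose by 2.30 ± 0.22 and 1.86 ± 0.15, while Wnt5a overlapped between tissues (39.3, 56.6 and 42.4 against 40.3, 43.7 and 23.7 CPM).

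BMP and TGF-beta genes were more often lower than higher, with 16 of 53 lower and 8 higher (median -0.293). Yet the list summed to 10300 to 10900 CPM in thymus against 8140 to 8650 in bone. Bmp4 was higher at 77.5, 67.9 and 79.2 CPM against 24.3, 25.7 and 29.5 (1.498 ± 0.22), and Bmp7 at 10.6, 22.3 and 27.5 against 0.0194, 0.537 and 0.618 (5.68 ± 0.71). Bmp5 (by 2.06 ± 0.23) and Bmp6 (by 2.30 ± 0.40) fell, as did the BMP antagonist Chrdl1 (by 1.67 ± 0.19) and the target gene Id1 (by 2.58 ± 0.47). Tgfb1 was lower (24.4, 27 and 39.8 against 78.4, 83.9 and 82.2 CPM), and Ltbp1, which stores latent TGF-beta in matrix, was higher (1511, 1316 and 1381 against 265, 245 and 188 CPM, 2.59 ± 0.17). Mstn, myostatin, had 0 reads in thymus and 5.34, 5.45 and 7.56 CPM in bone, at least 685-fold higher in bone against a floor of 3 reads over the tissue.

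Of 32 hedgehog and Notch pathway genes, 8 were higher and 9 lower (median 0.0637). Gli1, the transcription factor induced by hedgehog, was at 10.7, 8.21 and 14.7 CPM against 35.6, 35.6 and 30.1 (fell by 1.59 ± 0.22), and the receptor and target Ptch1 fell by 1.66 ± 0.25. Hhip, a decoy for hedgehog ligands, was at 0.134, 1.9 and 1.8 against 87.5, 93.8 and 69.3 CPM (by 6.03 ± 0.72), and the co-receptor Boc fell by 1.54 ± 0.14. Notch3, the receptor of mural cells, was at 308, 217 and 235 against 62.2, 72.5 and 40.6 CPM (2.12 ± 0.25), its ligand gene Dll1 rose by 3.15 ± 0.39, and the target Heyl by 1.25 ± 0.27. Hes1, another Notch target, was lower (by 0.63 ± 0.15).

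Insulin-like growth factors were lower in thymus. Igf1 was at 185, 278 and 291 CPM against 835, 811 and 831 (fell by 1.72 ± 0.22), and Igf2 at 92.7, 173 and 239 against 775, 808 and 671 (by 2.16 ± 0.55). The call of Igf2 was lost without thymus 2 (adjusted p = 0.0602) or thymus 3 (0.0507). Binding protein genes differed in direction: Igfbp5 fell by 2.02 ± 0.29 and Igfbp7 rose from 556, 542 and 554 CPM to 2405, 2082 and 1942 (1.96 ± 0.23). The list as a whole had 6 of 21 higher and 6 lower, and the higher count was 3 without thymus 2 or without bone 3. Of 34 vascular growth factor and receptor genes, 7 were higher and 11 lower (median -0.296), and 3 or 4 were higher without thymus 3, thymus 1-3 or bone 3. Vegfa overlapped between tissues, Pdgfc fell by 3.10 ± 0.27, Angpt1 by 1.16 ± 0.24 and Met, the receptor of hepatocyte growth factor, by 4.02 ± 0.21, while Nrp1, a co-receptor for VEGF and semaphorins, rose by 1.70 ± 0.14.

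Ligands and receptors that keep neurons alive were more often higher than lower. Of 21 neurotrophic genes tested, 8 were higher and 3 lower (median 0.131). Gfra2, a co-receptor for neurturin, was at 191, 157 and 175 CPM against 7.62, 9.45 and 5.65 (4.52 ± 0.21, adjusted p = 6.57e-08), and Ret, the receptor kinase it works with, at 259.6, 224 and 290.4 against 29.4, 30.4 and 50.7 (2.81 ± 0.31). Gfra1, the co-receptor for GDNF, was lower (by 1.39 ± 0.27). Ngfr, a receptor for neurotrophins, was at 105, 89 and 126 against 7.41, 9.99 and 3.21 CPM (3.95 ± 0.40). None of 11 Schwann cell and nerve markers tested was higher and 3 were lower (1 without thymus 2 or bone 1), with summed levels of 391 to 473 CPM in thymus and 371 to 439 in bone.

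Axon guidance genes had 24 of 67 higher and 12 lower (median 0.192). The secreted cues Ntn1 (57.2, 85.9 and 87.5 against 824, 664 and 673 CPM, fell by 3.23 ± 0.21) and Sema3a (19.6, 23.1 and 25.4 against 183, 134 and 149 CPM, by 2.77 ± 0.20) were lower. Sema3e fell from 111, 84.9 and 97.2 CPM to 0.117, 1.42 and 0.49 (by 7.16 ± 0.69). Slit2 and Slit3, repellents that bind Robo receptors, rose by 1.06 ± 0.25 and 0.99 ± 0.19. The receptors Epha3 (2.07 ± 0.18) and Unc5c (3.31 ± 0.50) and the membrane cue Rgma (2.08 ± 0.18) were higher too. Neural and immunoglobulin-type adhesion genes leaned the same way, with 27 of 66 higher and 11 lower (median 0.784; 7 lower without thymus 2, thymus 3 or bone 2), among them Nfasc (2.52 ± 0.17), Nrxn2 (3.57 ± 0.32) and Cadm1 (3.18 ± 0.30).

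Receptors for neurotransmitters, peptides and lipids included some of the largest differences. As a list, 11 of 53 were higher and 11 lower, the lower count being 6 without thymus 3 and 7 without thymus 1-3. Adcyap1r1, the receptor for the neuropeptide PACAP, was at 234, 195 and 202 CPM against 4.27, 3.14 and 2.63 (5.97 ± 0.33, adjusted p = 6.38e-07). Adra2a, an alpha 2 adrenergic receptor, was at 130.0, 96.5 and 142 against 3.26, 5.85 and 2.3 CPM (5.01 ± 0.39), and the tissues did not overlap. S1pr3, a receptor for sphingosine 1-phosphate, the lipid that guides T cells out of the thymus, was at 442, 365 and 408 against 40.1, 44.1 and 25.4 CPM (3.47 ± 0.22), and S1pr2 rose by 1.78 ± 0.12. Avpr1a, a vasopressin receptor, rose by 3.67 ± 0.29.

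Enzymes of cyclic nucleotides were higher for 15 of 34 tested and lower for 5 (median 0.611; 3 lower without thymus 3 or bone 1). Pde2a, a phosphodiesterase activated by cyclic GMP, was at 329.7, 274 and 229 CPM against 41.5, 54.3 and 43.9 (2.58 ± 0.19), and Adcy5, an adenylyl cyclase, at 97.3, 76 and 60.1 against 12.4, 8.73 and 6.86 (3.06 ± 0.26). Gucy1b3, a subunit of the nitric oxide receptor guanylyl cyclase, rose by 2.03 ± 0.16. Adcy2 was lower (by 3.38 ± 0.38). Potassium channel genes were close to the background in number (11 of 57 higher, 8 lower), although Kcng4, a modifying subunit, was at 76.7, 58.7 and 74.6 against 0.456, 0.392 and 0.933 CPM (6.89 ± 0.49). Piezo1, a mechanically gated channel, was lower (73, 69.7 and 68.5 against 192, 205 and 224 CPM, by 1.56 ± 0.18).

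Lipid mediator genes were called in both directions, 10 of 41 higher and 14 lower (median 0.0205). Enpp2, which encodes autotaxin, the enzyme that makes lysophosphatidic acid and aids lymphocyte entry into tissues, was at 4403, 3729 and 3011 CPM in thymus against 334, 294 and 331 in bone (mm10 chr15:54838898-54920146, 3.54 ± 0.22, adjusted p = 5.91e-07). Lpar1, a receptor for its product, did not pass (-0.32 ± 0.12, adjusted p = 0.0534) but was lower in 7 alternatives (0.00628 with DESeq2 to 0.0452 with the thymus and bone libraries alone). In prostaglandin synthesis, Ptges, the prostaglandin E synthase, was at 154, 145 and 162 against 25.3, 15.2 and 20.7 CPM (2.91 ± 0.19), and Ptgir, the prostacyclin receptor, rose by 2.13 ± 0.17. Ptgs2, the inducible cyclooxygenase upstream of both, was lower at 19.99, 50.6 and 14.9 against 189.6, 133 and 214 CPM (fell by 2.65 ± 0.42). The leukotriene genes Alox5 and Alox5ap, expressed by leukocytes, fell by 4.24 ± 0.64 and 3.77 ± 0.50.

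Extracellular nucleotide genes were higher for 12 of 30 and lower for 8 (median 0.17). The ectonucleotidase Entpd1, which encodes CD39, was at 183, 163 and 132 CPM against 8.13, 8.45 and 6.32 (4.38 ± 0.31, adjusted p = 2.84e-06), and Entpd2 at 375, 308 and 246 against 79.5, 61.3 and 54.5 (2.25 ± 0.27). Enpp1, which makes pyrophosphate, an inhibitor of mineral, was lower (by 2.63 ± 0.25). The UDP-glucose receptor gene P2ry14 rose by 3.73 ± 0.23 and the ion channel receptor gene P2rx7 fell by 1.51 ± 0.37.

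Retinoid genes were called in both directions, 6 of 26 higher and 8 lower (53.8% called, median -0.00683). Crabp2, which carries retinoic acid to its receptor, was at 0.369, 0.234 and 0.441 against 38.7, 35.4 and 57.4 (fell by 6.98 ± 0.33, adjusted p = 7.64e-08). Of the enzymes that make retinoic acid, Aldh1a1 rose (2.30 ± 0.21), and Aldh1a2 and Aldh1a3 fell by 1.69 ± 0.26 and 1.90 ± 0.30. Cyp26b1, which degrades it, fell by 4.16 ± 0.49.

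Among genes of local steroid metabolism and glucocorticoid targets, 5 of 25 were higher and 6 lower (44% called, median 0.0822). Hsd11b1, which regenerates active glucocorticoid, was at 568, 483 and 282 CPM against 3.4, 6.94 and 9.72 (6.06 ± 0.60, adjusted p = 5.29e-05). The glucocorticoid receptor gene Nr3c1 did not pass (0.34 ± 0.13, adjusted p = 0.0722), but did with the thymus and bone libraries fitted alone (0.0358). Of genes known as glucocorticoid targets, Fkbp5 was higher at 181, 129.5 and 107 against 21.7, 30.6 and 28 CPM (2.37 ± 0.21), Sgk1 was lower at 73.1, 54.7 and 50.5 against 391, 307 and 452 (by 2.69 ± 0.27), Per1 was lower (by 1.38 ± 0.21), and Zbtb16 did not pass (adjusted p = 0.367). Tsc22d3 did not pass either (-0.83 ± 0.29, adjusted p = 0.0534), but it was lower in 9 alternatives, among them DESeq2 (0.00981), the other scalings (0.0378 to 0.0455) and the fit without thymus 2 (-1.22, 0.00307).

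In metabolism, lipid handling genes had 15 of 51 higher and 12 lower (median -0.1), the lower count being 7 without bone 1. Apoe, a lipoprotein ligand, was at 824, 794 and 742 CPM against 123, 97.7 and 85.3 (2.95 ± 0.24), Lpl, lipoprotein lipase, at 1249, 1246 and 1114 against 303, 310.2 and 199 (2.15 ± 0.19), and the transporter gene Abca8a at 842, 714 and 673 against 127, 127 and 81.5 (2.73 ± 0.22). Adipocyte markers were not higher: 2 of 7 tested were lower, and 1 without bone 2. Pparg, the adipocyte regulator, fell by 1.74 ± 0.56, a call lost without thymus 2, thymus 3, bone 1 or bone 2 (adjusted p = 0.0523 to 0.126). Of 24 cholesterol synthesis genes, 7 were lower and 1 higher (median -0.437; 0 higher without thymus 3, thymus 1-3 or bone 1), the lower ones including Insig1 (by 1.59 ± 0.21) and Hmgcs1 (by 0.96 ± 0.20). Of 39 glycolysis and hypoxia genes, 14 were lower and 5 higher (median -0.475), and without thymus 2 the counts were 9 lower and 2 higher, with 3 higher without thymus 3, thymus 1-3, bone 1 or bone 3. Hk2, hexokinase 2, was at 4.57, 8.19 and 5.27 against 133, 90.8 and 137 CPM (fell by 4.32 ± 0.31, adjusted p = 3.69e-06), and the glucose transporter gene Slc2a3 fell by 3.42 ± 0.32.

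Antioxidant, xenobiotic and metal genes were split, 20 of 62 higher and 18 lower (median 0.0729). Gsr, glutathione reductase, fell by 1.70 ± 0.17, Gpx3, a secreted peroxidase, by 1.96 ± 0.27 and the metallothionein gene Mt2 by 3.83 ± 0.43. Cyp4b1, a cytochrome P450, was higher (27.8, 25.1 and 23.1 against 2.07, 1.35 and 0.629 CPM, 4.23 ± 0.46). Folding genes of the endoplasmic reticulum had 16 of 46 higher and 6 lower (median 0.317). Those that process collagen differed from each other: Serpinh1, the collagen chaperone, rose by 1.40 ± 0.18 and Plod1, a lysyl hydroxylase, by 1.496 ± 0.14, while Plod2, another lysyl hydroxylase, fell by 1.07 ± 0.19 and P4ha3, a prolyl hydroxylase subunit, by 1.83 ± 0.22. Hspa5, the main chaperone of the compartment, overlapped between tissues (0.09 ± 0.17, adjusted p = 0.724).

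Genes of the interferon response and of antigen processing rose in 37 of 51 cases, with 1 lower (median 1.52 against 0.0219 for all genes). Interferons act through factors that include STAT2 and IRF9, and a complex that holds both binds the interferon-stimulated response element, a pair of TTTC repeats. The letters TTTC, any 2 bases and TTTC, on either strand, were looked for in 300-base promoter windows of RefSeq (250 bases before to 50 after each start, GRCm38.p6, which is mm10). Of the 51 list members 36 had a window. The letters were in 19 of their 45 windows (42.2%), in 1131 of all 32851 windows (3.44%), and in 1 of 42 windows of the immediate early list (2.38%). Stretches before the start, 5′ to 3′ with the match in capitals, are shown for the class I light chain, a factor that carries the signal and target genes. A match is a description of the letters and matches may overlap.

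B2m: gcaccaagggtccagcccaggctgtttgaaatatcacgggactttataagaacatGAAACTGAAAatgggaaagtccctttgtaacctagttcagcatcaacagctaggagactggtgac
Stat2: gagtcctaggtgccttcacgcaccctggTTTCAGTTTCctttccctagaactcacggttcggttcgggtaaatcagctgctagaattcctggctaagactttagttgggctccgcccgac
Ifit3: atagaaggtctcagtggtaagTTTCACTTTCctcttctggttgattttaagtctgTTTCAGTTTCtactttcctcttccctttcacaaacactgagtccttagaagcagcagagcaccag
Irgm2: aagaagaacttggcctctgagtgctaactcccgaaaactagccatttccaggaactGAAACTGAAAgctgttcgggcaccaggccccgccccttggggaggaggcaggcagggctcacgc
Gbp7: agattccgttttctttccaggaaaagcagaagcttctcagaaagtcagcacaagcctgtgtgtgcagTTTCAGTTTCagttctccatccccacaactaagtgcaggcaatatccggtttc

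These stretches of 120 bases, all on the plus strand of GRCm38.p6, lie at chr2:122147493-122147612 (B2m), chr10:128270248-128270367 (Stat2), chr19:34583352-34583471 (Ifit3, which has 2 matches), chr11:58214857-58214976 (Irgm2) and chr3:142530216-142530335 (Gbp7). Of the 19 interferon genes with a match, 14 were higher, and of the 17 without one, 14 were higher, so that the share called was high with or without the letters.

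B2m, the light chain of MHC class I, was at 3623, 3397 and 7764 CPM in thymus against 556, 624 and 509.7 in bone (3.13 ± 0.50, adjusted p = 0.00103). Library thymus 1-3 was the highest for B2m and also for Ly6e, an interferon-induced surface antigen (1207, 1135 and 2158 against 196, 224 and 194 CPM), while thymus 2 and 3 alone exceeded each bone library too. The heavy chain gene H2-D1, on none of the lists, was more even, at 619.7, 545 and 579.9 against 137, 145 and 136 CPM (2.06 ± 0.27). Stat2 was at 94.3, 92.5 and 118 CPM against 43.7, 45.8 and 35.1 (1.29 ± 0.29), and Irf9 rose by 1.17 ± 0.19. Groups did not overlap for any of these genes.

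Among target genes, Ifit3, which blocks translation of foreign RNA, was at 34, 53.7 and 41.3 CPM against 11.9, 8.92 and 6.12 (2.26 ± 0.66, adjusted p = 0.0265), and its adjusted p was 0.0511 to 0.0945 without any 1 library other than bone 1. Irgm2, an immunity-related GTPase, was at 116, 99.9 and 100.3 against 21.4, 25.8 and 16.6 (2.31 ± 0.26, adjusted p = 7.17e-05), and Gbp7, a guanylate-binding protein, at 52.3, 57.8 and 47.7 against 28.5, 31 and 16.3 (1.06 ± 0.29, adjusted p = 0.018; 0.0535 without thymus 3 and 0.0507 without bone 3). Isg15, a ubiquitin-like modifier, did not pass at 14.4, 19 and 11.2 against 5.74, 6.25 and 3.6 CPM (1.51 ± 0.53, adjusted p = 0.0537, and 0.00662 with DESeq2), nor did Gbp2 (0.98 ± 0.40, adjusted p = 0.0893, and 0.00127 with the thymus and bone libraries alone), although libraries did not overlap for either. Cd74, the invariant chain of MHC class II, was at 19.5, 54.4 and 29.8 against 51.8, 56 and 55.5 CPM (-0.65 ± 0.45, adjusted p = 0.301).

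**Figure D5:**
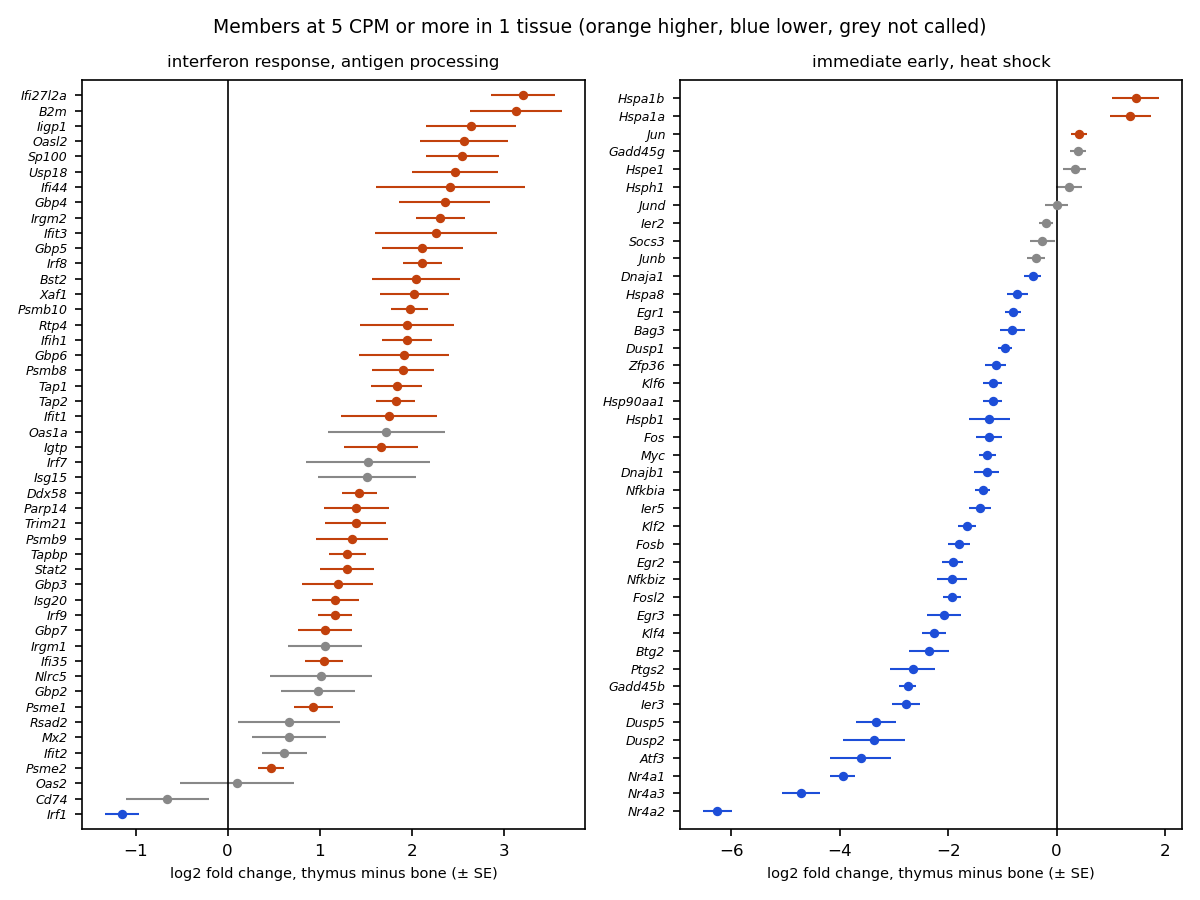
Log2 fold change, thymus minus bone, with its standard error (bars), for members of the interferon and antigen processing list (left) and of the immediate early and heat shock list (right) that reach 5 CPM in one tissue, with 1 interferon member not drawn. Most interferon points lie right of 0, such as B2m at 3.13, and most immediate early points left of 0, such as Nr4a2 at -6.26.

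Immediate early genes were lower in thymus for 32 of 42 tested, with 3 higher (median -1.28), and the list summed to 8510 to 10800 CPM against 19200 to 22700. These genes respond within minutes to serum, stress or handling of cells. Nr4a2, a nuclear receptor gene, was at 3.58, 4.44 and 3.14 CPM against 254, 247 and 354 (fell by 6.26 ± 0.27, adjusted p = 4.22e-08), and its relative Nr4a3 at 1.67, 1.66 and 2.76 against 37.3, 44.2 and 78 (by 4.71 ± 0.36). Fos fell less, from 3558, 3137 and 3205 CPM to 1546, 1772 and 834 (by 1.25 ± 0.24), as did Egr1 (by 0.80 ± 0.15). Bone cells were crushed and taken through red cell lysis, and the part of that preparation in these values cannot be told apart from the tissue. The higher members were Jun (0.41 ± 0.14) and the heat shock genes Hspa1a and Hspa1b, which overlapped between tissues (154, 49.7 and 165 against 43.5, 41.1 and 59.3 CPM for Hspa1a). None of these 3 was stable: 0 were higher without thymus 2 or bone 2, and the adjusted p of Jun was 0.0561 to 0.0668 under other scalings. Outside the list, the EGF receptor ligands Hbegf and Ereg fell by 7.88 ± 0.33 and 9.02 ± 0.86, Hbegf from 460.1, 311 and 380.0 CPM to 1.61, 1.68 and 1.6. The cyclic AMP response element, letters TGACGTCA, was in 2 of 42 immediate early windows (4.76%; Btg2 and Dusp1) against 1.79% of all windows.

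Cell cycle genes were lower for 19 of 51, with 5 higher (median -0.91), a count that was 12 without thymus 2 and 32 when the thymus and bone libraries were fitted alone. Mki67, a proliferation antigen, was at 44.1, 67.4 and 73.2 CPM against 159.9, 184 and 204 (fell by 1.57 ± 0.50, adjusted p = 0.0361), and Top2a, a topoisomerase of dividing cells, fell by 1.62 ± 0.43. The call of Mki67 was lost without any 1 library (adjusted p = 0.0598 to 0.129) and that of Top2a without thymus 2, thymus 1-3, bone 2 or bone 3 (0.0535 to 0.0724). Ccnd1, cyclin D1, was higher at 452, 347 and 366 against 41.1, 36.9 and 43 CPM (3.27 ± 0.15, adjusted p = 7.37e-08), and the inhibitor gene Cdkn1a, p21, was lower at 39.5, 27.4 and 30.8 against 201, 206 and 205 (fell by 2.65 ± 0.29). The inhibitor genes Cdkn2b (2.48 ± 0.32) and Cdkn1c (1.13 ± 0.29; adjusted p = 0.0533 without thymus 1-3) were higher.

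Transcription factor genes outside the Hox clusters separated the tissues in both directions. Of 69 homeobox and T-box genes, 17 were higher and 28 lower (median -0.569), and of 94 other mesenchymal factors, 22 were higher and 33 lower (median -0.0741). Nr2f1, an orphan nuclear receptor gene, was at 66, 54.2 and 55.5 CPM against 0.942, 2.16 and 0.64 (5.54 ± 0.41, adjusted p = 4.33e-06), and its relative Nr2f2 rose by 2.68 ± 0.29. Gata6, a factor of heart, gut and serosal mesenchyme, was at 55.7, 52.3 and 66.5 against 5.52, 2.51 and 2.51 CPM (4.05 ± 0.30). Tcf21, a factor of visceral fibroblasts, rose by 9.55 ± 1.34 to 16.5, 12.3 and 16.8 CPM from near 0 in bone, so that the size of its fold rests on few bone reads. The T-box genes Tbx2 (3.81 ± 0.41), Tbx3 (2.87 ± 0.23) and Tbx5 (2.55 ± 0.52) rose together. Tshz2 was higher at 246, 223 and 299.8 against 57.3, 54.8 and 70.8 CPM (2.07 ± 0.16), as was Meis1, a Hox cofactor (2.71 ± 0.35).

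Distal-less genes were opposed. Dlx2 was at 5.65, 4.08 and 8.43 CPM in thymus with 2 reads in bone, a ratio of 927 with a 95% counting interval of 256 to 7660. Dlx3 was at 73.7, 43.5 and 49 CPM in bone and at most 0.196 in thymus (fell by 9.26 ± 0.97), and Dlx5 fell by 6.202 ± 1.01. Dlx6 had 0 reads in thymus and was at least 131-fold higher in bone. Also lower were Foxd1 (by 8.33 ± 0.93), Shox2 (by 3.63 ± 0.39), Irx3 (by 3.33 ± 0.34), Runx1 (by 2.16 ± 0.26) and the skeletal factor Runx2 (by 1.53 ± 0.27). Twist2 overlapped between tissues (5.45, 6.45 and 5.95 against 6.39, 6.47 and 5.75 CPM).

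Integrin genes were lower for 15 of 26, with 2 higher (median -1.11). The higher ones were Itga1, a receptor for collagen and laminin (266, 222 and 226 against 32.5, 29.9 and 25.6 CPM, 3.02 ± 0.14, adjusted p = 6.48e-08), and Itga8, a receptor for RGD ligands on mural cells (94.6, 76.8 and 76 against 17.7, 19.2 and 12.8 CPM, 2.32 ± 0.27). Itga6, a laminin receptor chain, was lower at 23.6, 18.4 and 16.5 against 214, 151 and 184 CPM (by 3.23 ± 0.22), as was Itga10, a collagen receptor of cartilage (by 3.98 ± 0.31). The shared chain gene Itgb1 overlapped between tissues (0.26 ± 0.14, adjusted p = 0.179). Of the lower members, Itgam, Itgb2 and Itgal encode leukocyte integrins, and Itgam is itself on the myeloid list given above. Itgal fell by 1.63 and lost its call without thymus 1-3, bone 2 or bone 3 (adjusted p = 0.0531 to 0.0873). The part of leukocytes in these 3 differences was not tested.

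Several large families stayed near or under the background. Of 82 cytosolic ribosomal protein genes tested, 3 were higher and 1 lower (4.88% called, against 32.6% of all genes), and 0 to 5 were higher with 1 library left out (0 without thymus 1-3). Of 81 nuclear genes of the respiratory chain, 8 were higher and 0 lower (9.88% called), with 5 higher without thymus 1-3 and 4 without bone 2. Solute carriers stood at 42 of 290 higher and 57 lower (34.1% called). Among them Slc43a3, a transporter of purine bases, was at 515, 508 and 479.7 CPM against 37.3, 39.95 and 41.6 (3.66 ± 0.22, adjusted p = 3.79e-07), and the taurine transporter gene Slc6a6 was at 39.2, 53.5 and 50.2 against 300.3, 313 and 299.5 (fell by 2.67 ± 0.19).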

How the data were processed

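RNA of sorted cells was sequenced, and the authors deposited raw read counts per gene and RPKM values per library. CASAVA 1.8.2, HTSeq 0.5.4 and mm10 are named in the submitters' processing notes; no source used here gives the aligner, the annotation or whether strand was counted, so that reads of overlapping or antisense genes cannot be told apart. Lines that name no gene were left out; reads without a feature were 9.08 to 10% in thymus and 12.4 to 14% in bone.

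Counts of the 9 libraries were fitted by tissue with edgeR 4.0.16 in R 4.3.3 (filterByExpr, TMM factors of 1.1 to 1.18 in thymus and 1.16 to 1.23 in bone, robust quasi-likelihood test, Benjamini-Hochberg adjustment over 15635 genes). Standard errors were worked back from the test and are approximate. DESeq2 1.42.0 and limma 3.58.1 on log2 of RPKM plus 1 or 0.1 were alternatives, as were other scalings and filters, the thymus and bone libraries alone, a replicate block and leaving out each library. Deposited RPKM values also served for levels between genes. The edgeR step was tested on simulated data with the fitted spread and independent libraries. Far fewer genes were changed there than were called here, so that the simulation checks the code and not this comparison.

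Named genes were the 15 with the largest and the 15 with the lowest fold (at least 20 CPM), the 15 per direction most abundant per length (at least 4-fold), up to 5 members per list by p (at least 5 CPM) and the most abundant member that did not pass; further genes were named after their values were seen, and some genes are not reported here. The members and lists were chosen with earlier results of these data known. Genes with 3 or fewer reads in a tissue are given as a bound or a ratio with a 95% counting interval, which covers counting error only. Of 70 lists, the medians of 2 (keratins and B lineage) moved with genes at 0 reads set at their bound.

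Deviations from the tissue means correlated at -0.0173 (thymus 2 with bone 2) and 0.0715 (thymus 3 with bone 3), so that the numbers were not taken to pair samples. Within a tissue, libraries correlated at 0.977 to 0.988 on log2 CPM, and no 2 were the same within sampling noise.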

Additional observations from a re-analysis of the deposited data

How the results depend on the processing

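With 1 library left out, 1977 to 2199 genes were higher and 2008 to 2199 lower in thymus (2584 and 2517 with all), and 76.5 to 80.8% of calls were shared; under the other scalings, filters and tools 86.7 to 98.5% were shared, and the median of all genes stayed within -0.0283 to 0.0597. With the replicate block, 1663 genes were higher and 1736 lower, with 64.4% of calls shared. The interferon list then had 24 members higher, the cell cycle list 7 lower and the solute carriers 24 higher and 37 lower. In this block, thymus 1-3 shares its label with no other library. It is therefore fitted on its own and adds nothing to the contrast, so that this fit is not a replicate adjustment of all libraries. The edgeR calls of Stat2, Scx, Hes1, Rspo1 and Dlx6 were lost with the block (adjusted p = 0.0554 to 0.0931). Of 4666 values of named genes under an alternative, 4510 kept direction and side of the threshold, 99 lost the call, 34 gained it and 23 changed sign, all of the latter in genes that had not passed. Of 1870 counts of list members, 1728 stayed within 1.5 times. The cause of these changes was not tested.

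Csf1 changed sign without thymus 2 (0.0952), thymus 3 (0.0708), bone 1 (0.0923) or bone 3 (0.0139), Has2 without bone 1 (-0.0521) or bone 2 (-0.0845), Hspa5 without bone 2 (-0.00684), Twist2 without thymus 2 (0.00226) and Zbtb16 without thymus 2 (-0.335). Sparc did so with upper quartile factors (-0.0157), library size only (-0.021) and the replicate block (-0.0187). Timp2 did so with RLE factors (-0.0221), upper quartile factors (-0.0404), library size only (-0.0492), 1 CPM in 3 libraries (-0.0171), thymus and bone libraries only (-0.00308), the replicate block (-0.14), DESeq2 (-0.0221), and without thymus 1-3 (-0.0919) or bone 3 (-0.0306). H19, named below, did so without thymus 2 (0.233) or bone 2 (0.0862). With 1 library left out, the lowest and highest values were -0.215 and 0.0952 for Csf1, -0.0845 and 0.424 for Has2, -0.00684 and 0.265 for Hspa5, -0.12 and 0.00226 for Twist2, -0.335 and 1.01 for Zbtb16, -0.0919 and 0.0925 for Timp2, and -0.44 and 0.233 for H19.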

Other observations

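Imprinted genes, which are read from 1 parental copy and many of which act on fetal growth, had 10 of 34 members higher and 5 lower (median 0.554), and 6 higher without thymus 1-3. Ndn, the gene for necdin, was at 105, 96.2 and 92.4 CPM in thymus against 40.5, 49.5 and 36.9 in bone (1.21 ± 0.15), and Sgce, a sarcoglycan gene, rose by 1.05 ± 0.14. Plagl1, a zinc finger factor gene, was lower at 25.7, 32.7 and 57 against 122, 143 and 115 CPM (by 1.72 ± 0.28). H19, a non-coding RNA, overlapped between tissues (177, 458 and 549 against 469, 543 and 276 CPM).

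Cadherin and protocadherin genes had 10 of 27 higher and 5 lower (median 0.294). Pcdh12 was at 71.9, 52.8 and 59.2 CPM in thymus against 0.0971, 1.46 and 1.05 (6.13 ± 0.76), and Pcdh1 rose by 3.92 ± 0.33. Cdh13, a cadherin anchored by a lipid, was lower at 17.4, 21.6 and 17.8 against 294, 236 and 258 CPM (by 3.80 ± 0.23).

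Low counts were more often even than odd. Of values of 2 to 9 reads, 66.1%, 75.2% and 82.5% were even in thymus 2, 3 and 1-3, and 67.7%, 64.1% and 69.2% in bone 1, 2 and 3, over 232 to 1312 values per library. Counting intervals treat reads as independent, and the cause of the even values was not tested.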
